A study of Schizosaccharomyces pombe with 2 samples.

Results

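The autophagy genes of fission yeast (Schizosaccharomyces pombe) described here are the 28 features whose standard gene name is atg followed by digits, out of 5289 features in each deposited table, of which 5113 are protein-coding genes. The rule used the gene name and no measured value. Autophagy is the pathway by which a cell wraps parts of its cytoplasm in a double membrane and delivers them to the vacuole for breakdown. The Atg1 kinase complex starts the process, a lipid kinase complex marks the membrane, Atg9 and Atg2 supply lipid, and a ubiquitin-like system attaches Atg8 to the growing membrane. In yeasts the pathway is known for its strong response to starvation, and the cells studied here were not starved.

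The data are poly(A) sites mapped by 3' READS, a sequencing method in which each read marks the place where an RNA was cleaved and polyadenylated. The samples are replicate libraries A and B (n = 2) from wild-type cells (label FWP9) that grew exponentially at 30 °C in YPD, a rich medium. Both belong to 1 group, so no condition was compared, and whether A and B were separate cultures is not stated in the labels, so their spread may be technical. The series title links the location of poly(A) sites to the function of genes, and that question is followed here for the autophagy genes.

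The tables cover positions 1 to 400 after the stop codon, where position 1 is the first base past it. Replicate A held 50975984 reads in these windows and replicate B 54745397. The intervals below treat each read as a separate draw, although reads of a library are not independent molecules. They cover no more than counting error and may be too narrow. Genes with 50 or more reads in A and also in B are called measured. That held for 14 of the 28 atg genes, and the background is 74.7% of the 5113 protein-coding genes. The median over the 28 genes was 97.5 reads in replicate A and 61.5 in replicate B, against 359 and 301 reads over all protein-coding genes. Since a read marks the end of a transcript, gene length does not enter these levels, but ends past position 400 were not counted.

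The genes with the most reads were those of mitophagy, the removal of mitochondria by autophagy. The mitophagy receptor gene atg43 had 2506 reads in A and 3497 in B, which placed it at the 83.4 and 87.5 percentiles of protein-coding genes. The mitofissin gene atg44, whose product divides mitochondrial membranes during mitophagy, had 2056 and 1873 reads. Of the other members, the highest count was 628 reads. Next came atg11 with 608 reads in A and 516 in B, atg15 with 628 and 471, atg5 with 573 and 415, atg8 with 563 and 439, and atg9 with 476 and 505.

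**Figure D1:**
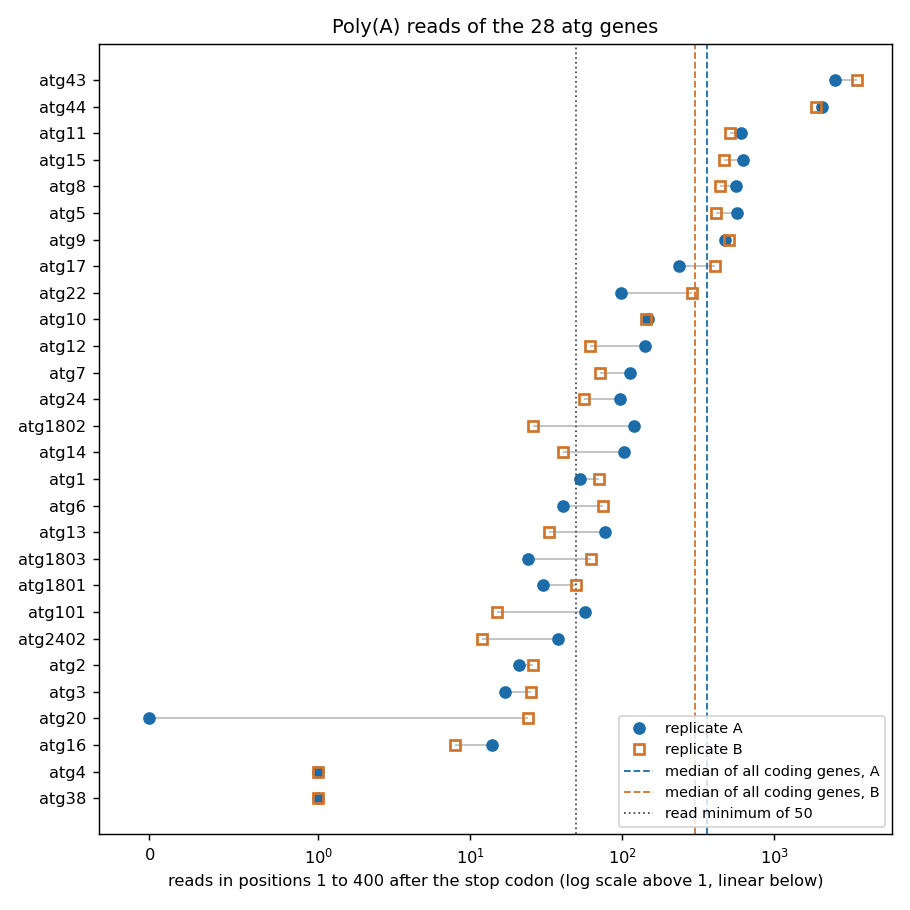
Reads in positions 1 to 400 after the stop codon (x axis, log scale above 1) for each of the 28 atg genes (rows), with a filled circle for replicate A and an open square for replicate B. Only atg43, atg44, atg11, atg15, atg8, atg5 and atg9 lie above the median of all protein-coding genes in both replicates (dashed lines, 359 reads in A and 301 in B), and 14 genes reach the minimum of 50 reads (dotted line) in both.

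The remaining 14 genes fell below the minimum in at least 1 replicate. The 3 atg-named genes of the lipid kinase complex were among them: atg14 had 103 reads in A and 41 in B, atg6, the beclin gene, had 41 and 75, and atg38 had 1 read in each. The genes of the Atg18 family, WD-repeat proteins that bind phosphoinositides, were low in at least 1 replicate too. Of these, atg1801 had 30 and 50 reads, atg1802 had 120 and 26, and atg1803 had 24 and 62. In the conjugation system atg3, which encodes the Atg8 conjugating enzyme, had 17 and 25 reads, atg16 had 14 and 8, and atg4, the protease gene that trims and releases Atg8, had 1 read in each replicate. The other genes below the minimum were atg13 (77 and 33 reads), atg101 (57 and 15), atg2402 (38 and 12), atg2 (21 and 26) and atg20, which had no read in A and 24 in B. Counts this low do not show whether the RNA was scarce or ended past the window. The annotated 3' end lies more than 400 nt after the stop codon for 7 of the 28 atg genes, with a background of 28.8% of protein-coding genes. It does so for 4 of these 14 genes, namely atg4 (726 nt), atg20 (515 nt), atg2402 (486 nt) and atg16 (473 nt), and the background is 45.4% of the 1295 protein-coding genes that were not measured. It lies there for 3 of the 14 measured genes, with a background of 23.2%.

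The stretches that end at the most used site of each of 8 genes are shown first, because these sites are described below. Whether the hexamers set the positions was not tested. Each stretch has 30 bases of the transcript strand, 5' to 3', from RefSeq assembly ASM294v3, and its last base is the most used site. Capitals mark 1 match per stretch, AATAAA or a hexamer that differs from it by 1 base (18 exist), where one lies at least 10 nt upstream of the site. Further matches are named in the next paragraph. All 8 genes have a match upstream of their most used site. The measured genes atg10, atg11, atg12, atg17, atg22 and atg24 are not shown, and of these atg11, atg12 and atg24 had no match.
atg1, site 137 nt after the stop codon, chrIII:849913-849942, minus strand: aactttttAATATAgacgtttttaattttg
atg5, site 7, chrII:3432195-3432224, minus strand: atattgttttAATGAAagtttaaaacattt
atg5, second cluster, site 135, chrII:3432067-3432096, minus strand: attaaggtgcgtttgagtactcctttccct
atg7, site 47, chrII:2634342-2634371, minus strand: cagtatactAATGAAttaaactatgtttgg
atg8, site 338, chrII:3684315-3684344, minus strand: aattaAAAAAAttgattttgattttctaat
atg9, site 299, chrII:3023214-3023243, minus strand: tacatttaatggaatgatattatttttatg
atg15, site 145, chrI:1055996-1056025, minus strand: cctatAATAAAacttatttttagcttgctt
atg43, site 370, chrI:5224867-5224896, minus strand: tagctagcAATATAatcagtcctaactatt
atg44, site 265, chrI:3366478-3366507, minus strand: tgtcttcaataccaAATCAActtccctttt

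In animals AATAAA is the main poly(A) signal, and yeasts use looser A-rich elements. Hexamers were searched on the transcript strand of the 40 to 10 nt upstream of the most used site, and overlapping matches were each counted. AATAAA or a single-base variant was found for 11 of the 14 measured atg genes, and the background is 71.3% of 3818 measured genes. With the search limited to 10 to 30 nt upstream it was found for 8 of the 14, against 2490 of the 3818 genes, so whether the atg share lay above or below that of all genes depended on the window. AATAAA itself was found for atg15 and atg22 only, and the background is 20.6%. For atg22 the site searched was position 150, with 41 of 98 reads in A and 13 of 286 in B. Position 183 was the most used one in B. For atg10, which is among the 11, the site searched was position 78, with no read in A and 61 in B. The genes atg11, atg12 and atg24 had none of the hexamers. In atg9 the match, AATGAA, begins upstream of the 30 bases shown. In atg8 AATTAA and ATTAAA also matched, overlapping the run of A shown in capitals, and in atg7 the same hexamers matched, overlapping the end of AATGAA and the bases after it. The base after the most used site was A in the genome for 13 of the 14 genes, atg1 being the exception, with a background of 97.6%, and the site itself was never A in any measured gene. Where encoded A follows a site, a tail that starts there and one that starts after the encoded A cannot be told apart.

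The position of a gene is its mean read position, weighted by reads, averaged over both replicates. The median position of the 14 measured atg genes was 142.9 nt, against 143.4 nt for all 3818 measured genes. Among the 14, 7 lay above that median of all genes, with a background of 50%. With a minimum of 200 reads the median was 219.95 nt over 8 atg genes, against 139.8 nt over 2856 genes, and 6 of the 8 lay above the median. The range over the 14 genes was wide, from 68.2 ± 29.7 nt (SD, n = 2) for atg7 to 370.8 ± 1.54 nt for atg43. Width, the span that holds the reads between their 10th and 90th percentiles, had a median of 38 nt, against 62.5 nt for all measured genes, and 6 of the 14 were wider than the median gene, with a background of 49.9%. This median was 76.5 nt in replicate A alone, over 18 genes with 50 reads there, and 26 nt in replicate B alone, over 17 genes. The values for all genes were 61 nt in A alone and 58 nt in B alone. Each of these sets holds atg genes beyond the 14, so they do not compare the libraries over the same genes. Among the 14 genes, width was larger in A for atg7, atg10, atg12, atg15, atg17, atg22 and atg24. It was larger in B for atg1, atg5, atg9 and atg11, and equal for atg8, atg43 and atg44.

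**Figure D2:**
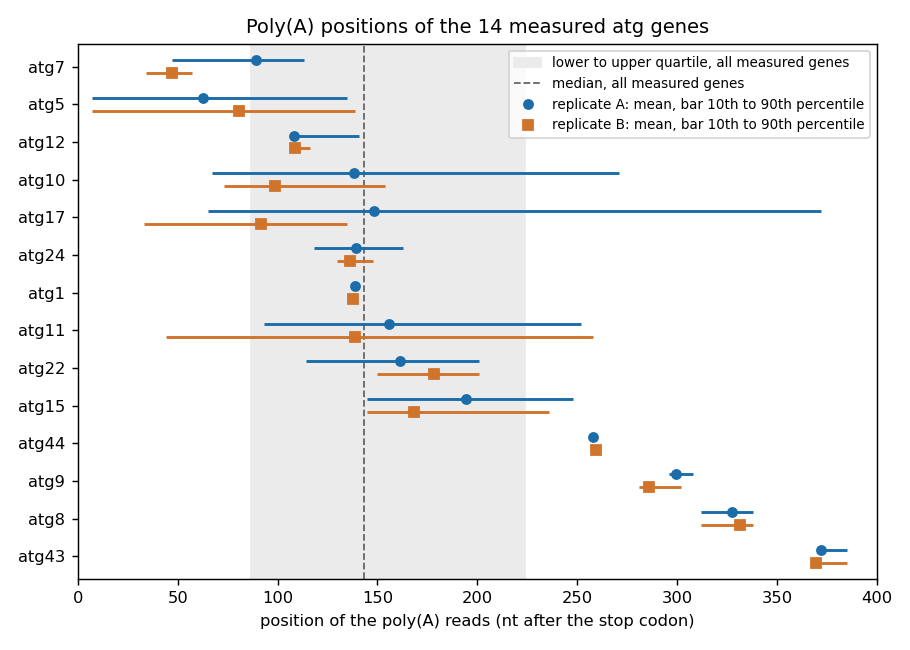
Mean position of the poly(A) reads (symbols) and their 10th to 90th percentiles (bars), in nt after the stop codon, for the 14 measured atg genes in replicates A and B; the dashed line is the median of all measured genes (143.4 nt) and grey its quartiles (86.5 and 223.8 nt). The genes atg44, atg9, atg8 and atg43 lie beyond the upper quartile with short bars in both replicates. The mean position lies below the lower quartile in both replicates for atg5, and in B only for atg7 (47.2 nt, against 89.2 nt in A).

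In the Atg1 complex, 3 of 5 genes were measured. The kinase gene atg1 had few reads but ended within a narrow space. Its mean position was 139.0 nt in A (53 reads) and 137.8 nt in B (70 reads). All but 1 read in each replicate lay at positions 136 and 137. Position 137 took 98.1% of the reads in A (95% Wilson interval 90.1% to 99.7%), and position 136 took 62.9% in B (51.1% to 73.2%), a difference of a single base.

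The gene of the kinase regulator Atg11 was the opposite, with reads spread over most of the window. Its mean position was 156.0 nt in A and 138.9 nt in B, and its width 159 and 214 nt. The most used position differed between replicates, with 17.9% of the reads at position 183 in A (15.1% to 21.2%) and 15.9% at position 258 in B (13.0% to 19.3%).

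The gene of Atg17, which activates the kinase, had its most used site at position 65 in both replicates (chromosome I, 1227351), with 40.3% of the reads in A (34.2% to 46.6%) and 45.1% in B (40.3% to 49.9%). A far site at position 372 held 46 of 236 reads in A and 31 of 408 in B. The mean position was 148.1 nt in A and 91.7 nt in B. No other measured atg gene differed more between replicates. The replicates also differed in the first cluster of sites, positions 13 to 65, which took 46.2% of the reads in A (39.9% to 52.6%) and 75.0% in B (70.6% to 79.0%). Here a cluster joins positions with reads that lie at most 24 nt apart.

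In the membrane and lipid supply group only atg9 was measured. Its product is a transmembrane protein of the vesicles from which the autophagosome membrane grows. Reads lay in a cluster at positions 281 to 310, with 99.6% of the reads in A (98.5% to 99.9%) and 92.9% in B (90.3% to 94.8%), and the most used site was position 299 in both replicates (chromosome II, 3023214). The annotated 3' end of atg9 lies 170 nt after the stop codon, so the site is 129 nt past it. Among the 14 genes, atg9 and atg11 had their most used site past the annotated end, with a background of 12.6% of 3694 measured genes with an annotated 3' UTR. For atg11 the distance was 20 nt, taken from position 161, which had the highest mean share over both replicates (61 reads in A and 58 in B). It was not the most used position in either replicate alone.

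The conjugation genes spanned both ends of the range. Of 8 genes, 5 were measured, 4 below and 1 above the median position of all genes. Atg8, the ubiquitin-like protein that is joined to lipid on the autophagosome, is encoded by a gene with a long 3' UTR. The mean position of atg8 was 327.7 nt in A and 331.3 nt in B, with a width of 26 nt in both. Position 338 took 36.1% of its reads in A (32.2% to 40.1%) and 44.2% in B (39.6% to 48.9%), and the neighbouring peaks at positions 312 and 335 held 132 and 168 reads in A and 106 and 121 in B.

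The gene of Atg5, which acts in a complex with Atg12 and Atg16, had 2 separated groups of ends. Its most used site was position 7 in both replicates (chromosome II, 3432195), directly after the stop codon, so the hexamer shown above lies inside the coding sequence. This site took 40.8% of the reads in A (36.9% to 44.9%) and 33.0% in B (28.7% to 37.7%). The cluster at positions 7 to 20 held 57.1% of the reads in A (53.0% to 61.1%) and 41.0% in B (36.3% to 45.8%), and a second cluster at positions 105 to 143 held 41.0% (37.1% to 45.1%) and 55.7% (50.9% to 60.4%). Both ends were used in both libraries, but which was used more differed between them.

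The gene of Atg7, the activating enzyme of both Atg8 and Atg12, ended near the stop codon, but its replicates did not match. Position 47 was the most used site in B, with 45 of 72 reads, and held 31 of 112 in A. The most used site in A, position 113, held 63 reads there and none in B. The mean position was 89.2 nt in A and 47.2 nt in B. Inside the open reading frame (ORF) atg7 had 7 reads in A and 67 in B, which were 5.88% and 48.2% of its ORF and window reads.

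The other conjugation genes lay between. Atg12, a ubiquitin-like protein, is encoded by a gene with mean positions of 108.0 nt in A and 108.6 nt in B and the same most used site, position 106, with 67.4% of the reads in A (59.3% to 74.6%) and 67.2% in B (54.7% to 77.7%). The gene of Atg10, the conjugating enzyme of Atg12, had 149 reads in A and 144 in B, and their peaks did not coincide. Its most used position was 110 in A (34 reads) and 78 in B, where A had no read and B had 61. Joined into clusters they were closer, since positions 67 to 117 held 58.4% of the reads in A (50.4% to 66.0%) and 79.2% in B (71.8% to 85.0%).

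**Figure D3:**
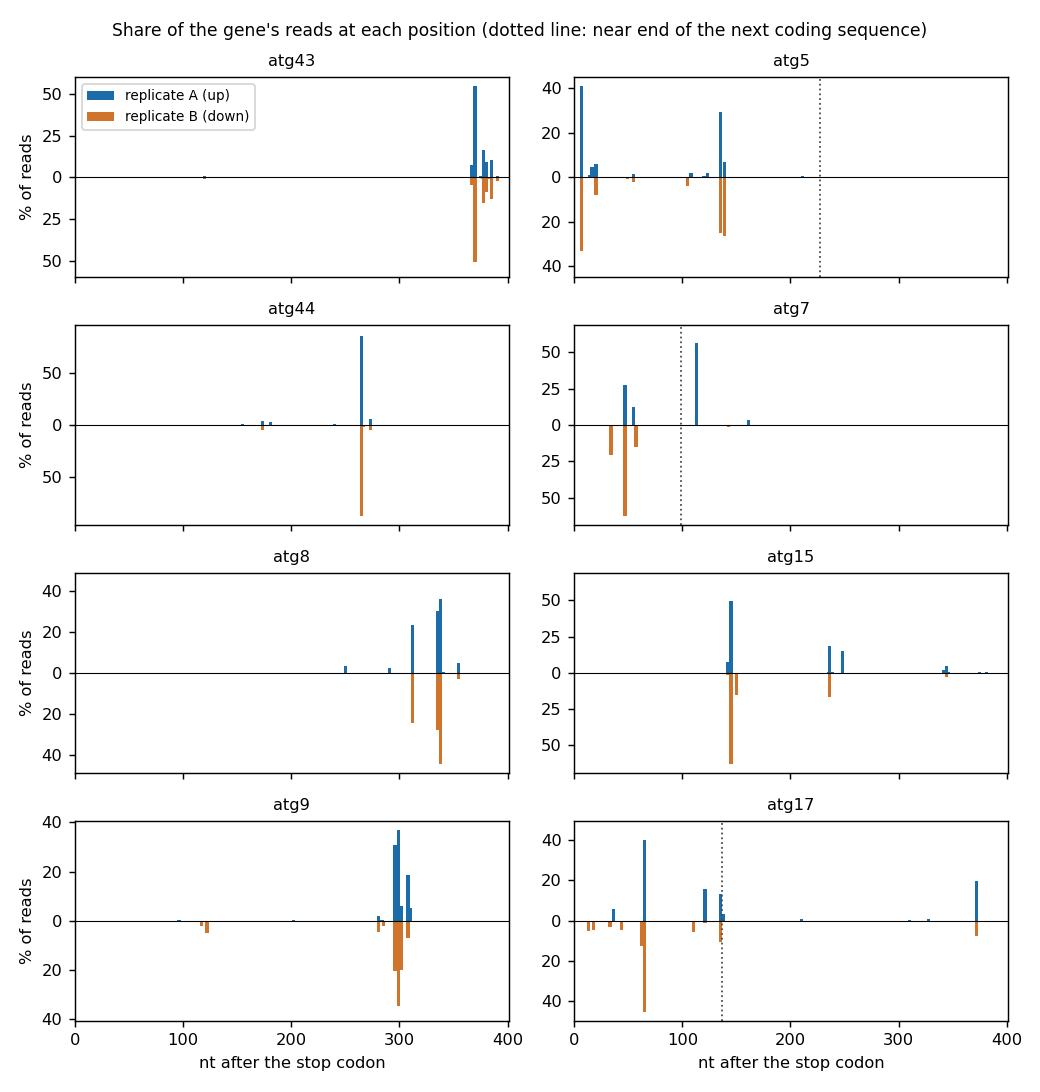
Share of each gene's reads (y axis, percent; replicate A upward, replicate B downward) at each position after the stop codon (x axis, nt) for 8 atg genes; the dotted line marks the near end of the next coding sequence where it lies inside the window. The genes in the left column (atg43, atg44, atg8, atg9) have 1 dominant group of ends far from the stop codon, while atg5, atg15 and atg17 in the right column use separated groups and the peak of atg7 at position 113 is seen in replicate A only.

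The genes that act in the vacuole both ended past the median of all genes. The lipase gene atg15, whose product breaks down the delivered membranes, used position 145 most in both replicates (chromosome I, 1055996), with 49.8% of the reads in A (45.9% to 53.7%) and 62.8% in B (58.4% to 67.1%). A second cluster at positions 235 to 248 held 34.9% in A (31.2% to 38.7%) and 16.6% in B (13.5% to 20.2%), and the mean position was 194.2 nt in A and 168.2 nt in B. The gene of Atg22, which exports amino acids from the vacuole, had mean positions of 161.5 nt in A and 178.5 nt in B, from 98 and 286 reads. The cluster at positions 149 to 154 held 43.9% of the reads in A (34.5% to 53.7%) and 12.9% in B (9.53% to 17.3%). The cluster at positions 183 to 204 held 39.8% in A (30.7% to 49.7%) and 81.5% in B (76.6% to 85.5%), and the intervals of the clusters overlap in A only. The sorting nexin gene atg24 ended at 139.1 nt in A and 136.3 nt in B, with position 130 the most used in both.

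The mitophagy genes ended far from the stop codon and within a narrow span. For atg43 the mean position was 371.9 nt in A and 369.7 nt in B, and 99.0% of the reads in A (98.5% to 99.3%) and 97.9% in B (97.3% to 98.3%) lay at positions 367 to 394, close to the edge of the window. Its annotated 3' end, 3434 nt after the stop codon, is far past the window and past the coding sequence of the next gene, uga1. For atg44 the mean was 258.1 nt in A and 259.3 nt in B, and position 265 (chromosome I, 3366478) alone took 85.3% of the reads in A (83.7% to 86.8%) and 86.9% in B (85.3% to 88.4%). Its width was therefore 0 nt in both replicates. Whether either gene has further ends past position 400 was not analysed here.

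Replicate positions lay at most 10 nt apart for 6 of the 14 genes (atg1, atg8, atg12, atg24, atg43 and atg44), with a background of 66.1%. The median absolute difference was 15.4 nt, against 5.18 nt for all measured genes. The same position was the most used one in both replicates for 9 of the 14 genes, with a background of 72.4%. Depth moved with the difference. Where the replicate with fewer reads had under 500, as in 11 of the 14 atg genes, 4 were within 10 nt, with a background of 48.8%, and the median difference was 17.0 nt, against 10.3 nt over 1891 such genes. Of the 3 deeper atg genes 2 were within 10 nt, with a background of 83.1%, and the median difference was 2.18 nt, against 2.58 nt over 1927 genes. A position that held at least 10% of the reads in 1 replicate and no read in the other occurred in 7 of the 14 genes, with a background of 30.9%. It was a neighbouring base in atg1, whereas in atg7 the peak at position 113 held 56.2% of the reads in A. The part of depth in these differences was not tested.

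At least 2 clusters, each with at least 10% of the reads in both replicates, were found in 5 of the 14 genes, namely atg5, atg10, atg15, atg17 and atg22, with a background of 31.5%.

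The next coding gene downstream lay on the opposite strand (convergent) for 15 of the 28 genes, with a background of 54.4% of 5108 protein-coding genes. Between the stop codon and the next coding sequence lay a median of 428 bases, against 534.5 for all protein-coding genes. In 10 convergent pairs both genes were measured, and the transcripts that end at the most used sites overlapped in 1 of them, with a background of 26.6% of 1871 genes. That pair was atg7 and mde4, which encodes a monopolin subunit. Their stop codons are 98 bases apart, the most used site of mde4 lies 59 nt after its stop codon, and with the atg7 site at 47 nt, the most used in B, the ends overlap by 8 nt. With the most used site of A, at 113 nt, they overlap by 74 nt. The most used sites of each replicate alone gave the same count of 1 pair. The stop codons of atg17 and rio1, a protein kinase gene, are 136 bases apart, and their most used sites, at 65 and 53 nt, leave 18 bases between them. The widest space was 197 bases, between atg9 and naa30.

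**Figure D4:**
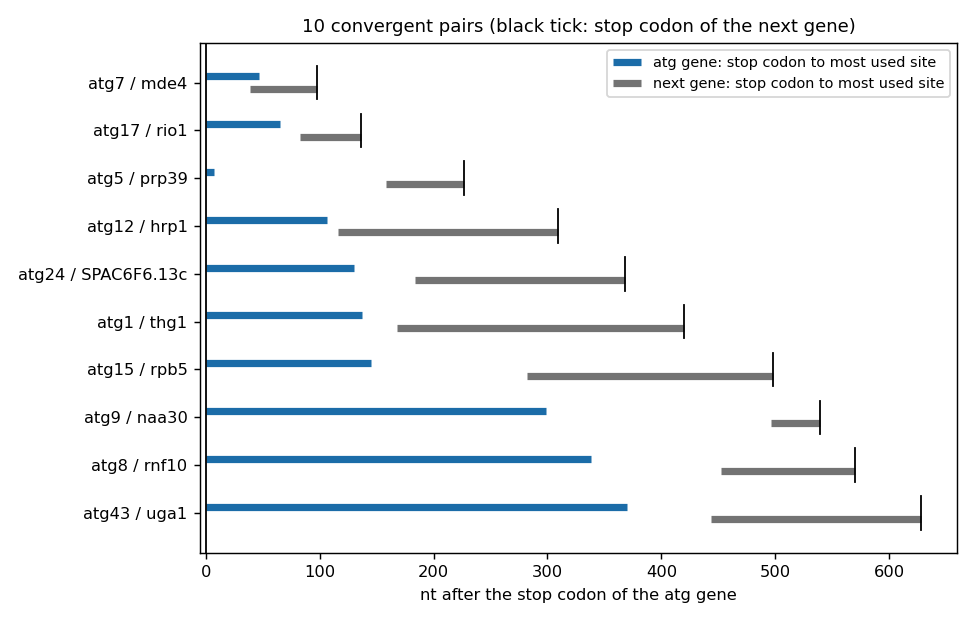
Bars run from the stop codon to the most used poly(A) site for 10 atg genes (blue) and their convergent neighbours (grey), in nt after the stop codon of the atg gene; the black tick is the neighbour's stop codon. Bars overlap only for atg7 and mde4 (8 nt with the site at 47 nt drawn here), and the other pairs are separated by 10 to 197 bases.

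Reads past the near end of the next coding sequence were counted for each gene. At least 5% of the reads lay there in both replicates for 1 of the 14 genes, atg17, with a background of 6.86%. Its share past the stop codon of rio1 was 25.0% in A (19.9% to 30.9%) and 7.60% in B (5.40% to 10.6%), mostly at position 372. For atg7 the share past the stop codon of mde4 was 59.8% in A (50.6% to 68.4%) and 1.39% in B (0.246% to 7.46%). All 21 reads of atg2 in A and all 26 in B lay past the start codon of the next gene, SPBC660.17c, which is on the same strand 254 bases downstream. These reads fall in the coding sequence of that gene, so whether they come from atg2 transcripts cannot be told apart. The annotated 3' end of atg2 lies 26 nt after its stop codon, and no read lay within the first 254 nt.

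Reads inside the ORF mark RNA ends before the stop codon, and whether they come from the gene's own transcripts was not tested. The median share of ORF reads among ORF and window reads was 0.516% in A and 1.51% in B for the 14 measured genes, against 0.396% and 0.922% for all measured genes. It reached 10% in both replicates for 1 of the 14, atg17 (18.6% in A, 14.6% to 23.5%, and 10.1% in B, 7.68% to 13.3%), with a background of 4.48%. In 1 replicate only, it reached 10% for atg7 (5.88% in A and 48.2% in B) and atg22 (24.6% and 2.39%). The same held for atg5 (8.03% and 13.9%) and atg44 (5.03% and 12.8%). The background of such shares in 1 replicate was not counted. The gene of Atg14, the subunit that directs the lipid kinase complex to autophagy, was below the read minimum in the window but had 139 ORF reads in A and 125 in B. These were 57.4% of its ORF and window reads in A (51.1% to 63.5%) and 75.3% in B (68.2% to 81.2%). Of 15 atg genes with at least 50 such reads in each replicate, it was the only one with 50% or more inside the ORF in both, with a background of 1.55% of 3934 genes. Positions of reads inside the ORF were not used here.

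Other genes of the pathway that carry no atg symbol were taken from a list of 15 symbols, of which 12 were matched, pik3 through its synonym vps34. All 12 were measured, 8 above and 4 below the median position of all genes, with a background of 50% above, and their median position was 178.9 nt. In the lipid kinase complex, the catalytic subunit gene pik3 lay at 81.7 ± 13.0 nt (SD, n = 2) and the regulatory subunit gene vps15 at 68.4 ± 13.0 nt. The fusion factor gene fsc1 had 94.0 ± 29.0 nt. The largest position belonged to ypt7, the GTPase gene of vacuole fusion (335.5 ± 0.393 nt), and the cargo receptor gene nbr1 had 274.4 ± 9.15 nt. The carboxypeptidase Y gene cpy1 had 6291 reads in A and 7439 in B and a position of 115.2 ± 2.28 nt, while the vacuolar protease genes isp6 and psp3 had 220.8 ± 6.63 nt and 171.2 ± 1.06 nt.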

How the data were processed

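The 2 libraries of wild-type fission yeast hold cleavage sites read by 3' READS. Alignment was by Bowtie, per the submitters' processing notes. Not given in the sources used here are the Bowtie version and options, what was done with multiply mapping reads, and the build. Per the file headers, the authors deposited for each replicate, and for both merged, read signal values per feature (ORF sum, window total, most used position) and the level at each of 400 positions as a percent of the most used position. The deposited tables also give a weighted average location in nt, another quantity, which differed from the positions computed here by at most 0.0487 nt in A and 0.0950 nt in B.

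The deposited signal values were multiples of a step, 0.930 in A, 0.869 in B and 0.899 in the merged table; 100% of window totals of at most 100 reads (1210, 1348 and 1006 values) came out whole within 0.1. Dividing by the step gave reads. RefSeq assembly ASM294v3 has the same stop codon coordinates as the tables for each of the 5113 protein-coding features. From it annotated 3' ends, neighbouring coding genes and bases were read; noncoding neighbours were not used. Python 3.11.15, NumPy 2.4.6, pandas 2.3.3, SciPy 1.17.1 and Biopython 1.88 were used, and the position statistics were tested on simulated data.

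The members and gene lists were chosen with earlier results of these data known. All 28 atg genes are named, with positions for the 14 measured ones, as are convergent neighbours whose ends are described. As both samples form 1 group and genes are not replicates, no test was made; counts are set beside the same over all genes. Most used sites are the positions with the highest mean share over both replicates. Alternatives were read minimums of 20 and 200, each replicate alone, median and most used positions, positions 1 to 300, annotated ends within 400 nt, the merged table, the standard deviation as width and narrower hexamer searches.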

Additional observations from a re-analysis of the deposited data

How the results depend on the processing

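The median position of the atg genes, 142.9 nt, was 138.9 nt without replicate A (17 genes) and 152.0 nt without replicate B (18 genes), and lay between 138.4 and 146.2 nt with median or most used positions, positions 1 to 300, annotated ends within 400 nt, the merged table or a minimum of 20 reads. The median over all genes moved in some of these settings. With positions 1 to 300 the atg median was 142.1 nt, against 130.2 nt over 3762 genes. With annotated ends within 400 nt it was 138.4 nt over 11 genes, against 130.2 nt over 2933 genes. With a minimum of 200 reads it was 219.95 nt over 8 genes, against 139.8 nt over 2856 genes. The number above the median of all genes, 7 of 14, was 7 of 17 without replicate A and 10 of 18 without replicate B. It was 6 of 8 with a minimum of 200 reads, against 1428 of 2856 genes. With positions 1 to 300 it was 9 of 14, against 1881 of 3762 genes. With annotated ends within 400 nt it was 7 of 11, against 1466 of 2933 genes. The median width, 38 nt, was 26 nt without replicate A and 76.5 nt without replicate B. The number of measured atg genes was 14 of 28, against 3818 of 5113 protein-coding genes. It was 21 of 28 with a minimum of 20 reads, against 4163 of 5113, and 8 of 28 with 200, against 2856 of 5113. Genes with a hexamer numbered 11 of 14, against 2721 of 3818 over all genes. The count was 13 of 17 without replicate A, against 2778 of 3941, and 13 of 18 without replicate B, against 2852 of 4045. With a minimum of 200 reads it was 7 of 8, against 2059 of 2856. With the search limited to 10 to 30 nt upstream it was 8 of 14, against 2490 of 3818 genes. With AATAAA or ATTAAA only it was 5 of 14, against 980 of 3818 genes. The stricter settings keep fewer genes or fewer hexamers by construction. The median reads, 72.5 as a mean over replicates, were 61.5 without replicate A and 97.5 without replicate B. Clusters joined at 10 nt, an alternative chosen after seeing the data, gave 7 of 14 genes with several major clusters, with a background of 44.7%, against 5 at 24 nt, with a background of 31.5%. The count of overlapping convergent pairs, another such alternative, was 1 of 10 with each replicate alone. Positions of the 14 genes moved by at most 7.52 nt with the merged table. They moved by over 10 nt for 4 genes with median positions, at most 36.2 nt, and for 3 genes with positions 1 to 300, at most 222.4 nt for atg43, which had 148.3 nt there. No paired analysis was possible because both samples belong to 1 group.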
